A study of Canis lupus familiaris with 12 samples.

Results

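Integrins and tetraspanins are the adhesion receptors and the membrane organisers that lie beside them, and their transcripts were followed in canine mast cells kept with masitinib. All genes with an integrin alpha, integrin beta or TSPAN symbol in the platform annotation were taken, together with CD9, CD37, CD53, CD63, CD81, CD82 and CD151, by symbol alone. This gave 52 of the 15115 named genes on the array, read by 112 of the 29254 probe sets that carry 1 gene symbol. There were 25 integrins, with 17 alpha and 8 beta subunits, and 27 tetraspanins. ITGAD was not counted because its probe set is also annotated to another gene.

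The cells are C2, a line from a mast cell tumour of a dog, and the drug masitinib inhibits KIT, the receptor tyrosine kinase on which mast cells depend. By the authors' account masitinib also targets the PDGF receptors alpha and beta and kinases of the Src family. They describe C2 as carrying a tandem duplication in KIT that keeps this receptor constantly active. RNA was taken from 3 flasks before the drug was added (0 h) and from 3 flasks each after 12, 24 and 72 h with 100 nM masitinib, and each RNA was read on its own Affymetrix Canine Genome 2.0 array. All 4 groups are 1 established line in the same medium, the 0 h cultures had no drug, and cultures kept without drug to the later times are not analysed here, so the drug and the time in culture cannot be told apart. P-values measure only the spread between flasks of this line.

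Integrins are pairs of 1 alpha and 1 beta subunit that bind matrix proteins or receptors on other cells, and the alpha subunit largely sets the ligand. Talin and kindlins bind the beta tail, switch the pair to its high-affinity form and tie it to actin. Tetraspanins are small proteins that cross the membrane repeatedly and gather integrins, proteases and immune receptors into patches. Mast cells use integrins to home to and stay in tissue, and the tetraspanin CD63 lines their granules and appears at the surface when these are released.

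Values are log2 expression values, so a difference of 1 is a doubling of signal, and each gene is given by its brightest probe set (highest mean over the 12 arrays). A gene rose or fell where the adjusted p of the limma fit was under 0.001 and the change exceeded 1.5-fold. Probe sets differ in how brightly they report, so their levels do not rank genes, and on bulk RNA fewer cells with a transcript and less transcript per cell cannot be told apart. Arrays of 1 time point correlated at r of 0.9952 to 0.9979 over probe sets and those of different times at 0.969 to 0.9928. The difference between the 3' and 5' probe sets of GAPDH, a sign of RNA quality, averaged 0.626, 0.457, 0.546 and 0.474 at 0, 12, 24 and 72 h. The GAPDH arrays spanned 0.365 to 0.545 at 72 h and 0.565 to 0.685 at 0 h. That of actin averaged 1.85, 1.61, 1.80 and 1.93. Its arrays spanned 1.65 to 2.15 at 72 h and 1.65 to 2.13 at 0 h, nearly the same range. The part of RNA quality in the results was not tested. The 9 measured of 11 mast cell markers averaged 12.41 to 12.87 per array under masitinib and 12.06 to 12.14 at 0 h. By the test 1, 5 and 4 of them rose at 12, 24 and 72 h (11.1%, 55.6% and 44.4%). Of all named genes 4.26%, 8.01% and 8.73% rose. No mast cell marker fell by the test, and SLC18A2 changed by -0.52, -0.04 and -0.55 without a call. Array means of the T cell, B cell, myeloid, platelet, epithelial, fibroblast and endothelial marker lists lay between 4.12 and 7.09. Of the 4 endothelial markers KDR rose by 1.68 and 2.54 at 24 and 72 h, and CDH5, TEK and EMCN passed at no time.

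At 12 h, 5 of the 52 genes rose (9.62%) and 3 fell (5.77%), against 4.26% and 6.3% of all named genes. At 24 h, 9 rose (17.3%) and 2 fell (3.85%), against 8.01% and 10.0%. At 72 h, 8 rose (15.4%) and 5 fell (9.62%), against 8.73% and 11%. The median log2 change of the 52 was 0.129, 0.126 and 0.133 at the 3 times, beside 0.011, 0.033 and 0.023 for all named genes. The 3 comparisons share the 0 h arrays. In all, 9 integrins and 9 tetraspanins passed at 1 or more times (34.6% of the 52, against 24.5% of all named genes), and 34 genes never did.

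The levels went on moving under the drug. From 12 to 24 h, TSPAN2 alone rose and ITGA2 alone fell, 1.92% each against 1.41% and 3.1% of named genes. Between 24 and 72 h, 2 rose (3.85%, against 1.96%) and 7 fell (13.5%, against 1.81%): TSPAN2 and TSPAN13 were higher at 72 h, and ITGA4, ITGA6, ITGAV, ITGB3, CD81, TSPAN7 and TSPAN12 were lower. Between 12 and 72 h, 6 rose and 6 fell, 11.5% each against 4.8% and 5.51%.

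**Figure D1:**
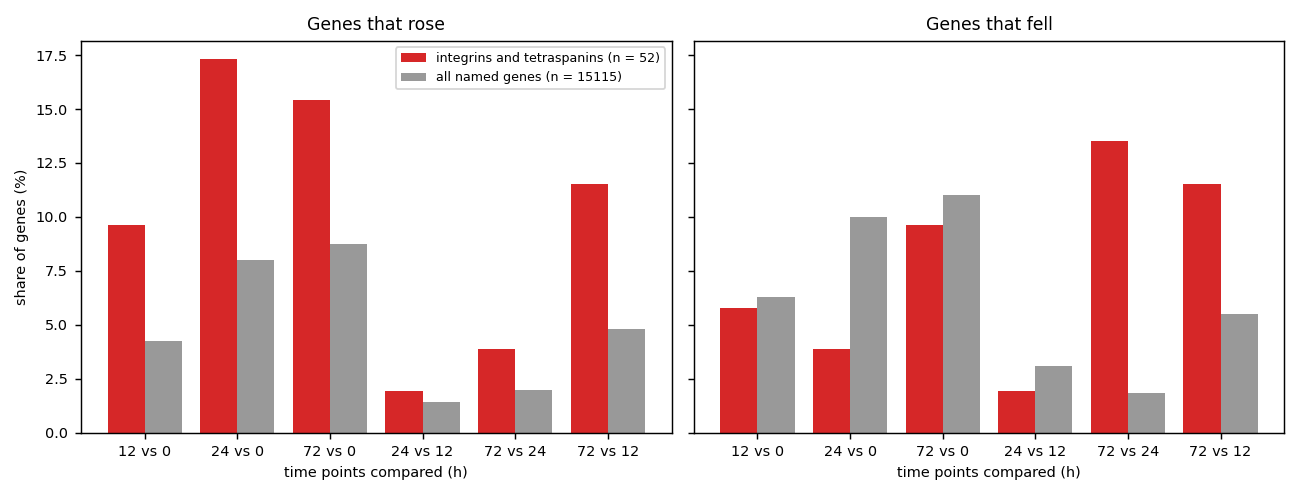
Share of genes that rose (left) or fell (right) in each of the 6 comparisons of time points, in percent; red bars are the 52 integrins and tetraspanins and grey bars all 15115 named genes. The red bars stand above the grey ones for rises in every comparison, and for falls only in 72 against 24 h and 72 against 12 h, with 13.5% against 1.81% in 72 against 24 h.

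Scaling bears on direction. The 36 bacterial poly-A control probe sets read higher on treated arrays by 0.293, 0.603 and 0.471, and shifting each array to equal poly-A signal moved the median of all named probe sets by -0.28, -0.58 and -0.45. The share of called probe sets that fell then became 89.5%, 96.3% and 91%, in place of 60.9%, 58.8% and 58.9%. On that scale 474, 536 and 904 of the 29254 named probe sets rose and 4043, 14140 and 9157 fell. Of the 52 members 3, 3 and 1 rose and 3, 16 and 10 fell. Members are counted as genes and the whole array as probe sets, so each count is read against its own total. ITGA4, ITGAV and TSPAN2 still rose at 12 and 24 h and TSPAN2 at 72 h, every fall remained, and the other rises were lost. With arrays centred on their medians the share of falls was 65.9%, 62.2% and 61.9%. Every direction below is therefore relative to the other genes on the array.

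Among the receptors of leukocytes, ITGA4 changed most. It encodes the alpha 4 chain, which pairs with ITGB1 to bind VCAM1 and fibronectin or with ITGB7 to bind MAdCAM1 in gut vessels. Its log2 values were 5.62, 5.42 and 5.65 at 0 h, 7.31, 7.73 and 7.74 at 12 h, 8.01, 8.02 and 8.03 at 24 h and 6.47, 6.58 and 6.41 at 72 h. Every treated array lay above every 0 h array, and the 72 h arrays lay below all of those at 12 and 24 h. The changes against 0 h were 2.03, 2.45 and 0.93 (SE 0.107, n = 3 each; limma adjusted p = 2.95e-08, 1.62e-09 and 1.12e-05), or 5.48-fold at 24 h. From 24 to 72 h it fell by 1.53 (adjusted p = 1.22e-06). Only 1 probe set reads this gene, and its rise at 72 h fell short of the test with poly-A scaling (0.93 became 0.45).

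ITGA9, whose product pairs with ITGB1 and binds tenascin C and VCAM1, moved the other way. Its values were 7.72, 7.61 and 7.65 at 0 h, 6.27, 6.30 and 6.28 at 12 h, 6.78, 6.54 and 6.67 at 24 h and 7.15, 7.16 and 7.34 at 72 h. All treated arrays lay below the 0 h arrays, with the lowest values at 12 h and a partial return by 72 h. The changes were -1.38 and -1.0 at 12 and 24 h (SE 0.0745; adjusted p = 3.43e-08 and 2.06e-07), and -0.45 at 72 h, which did not exceed 1.5-fold. It was higher at 72 than at 12 h by 0.93 (adjusted p = 8.2e-07). Their shared ligand VCAM1 averaged 3.29, 3.29, 3.25 and 3.29 at 0, 12, 24 and 72 h and passed no test.

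The chains that pair with ITGB2 on leukocytes, ITGAL (LFA-1), ITGAM (the complement receptor Mac-1) and ITGAX, passed no test against 0 h. ITGAM alone differed between treated times. Its values were 6.18, 6.08 and 5.96 at 0 h, 5.60, 5.95 and 5.85 at 12 h, 6.00, 6.09 and 5.99 at 24 h and 6.49, 6.63 and 6.53 at 72 h, and the 72 h arrays lay above all others. The change was -0.27, -0.05 and 0.48 against 0 h (SE 0.0898), and 72 h exceeded 12 h by 0.75 (adjusted p = 2.93e-05). ITGB2 itself averaged 11.04, 11.16, 11.45 and 11.45 at the 4 times and ITGB7 10.51, 10.63, 10.99 and 10.69. Both went without a call, with changes of at most 0.49.

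ITGAE, which joins ITGB7 to bind E-cadherin, depends on the probe set. The brightest changed by 0.06, 0.05 and 0.08. The next, with nearly the same mean signal (7.04 against 7.06), read 7.52, 7.36 and 7.55 at 0 h, 7.15, 7.14 and 7.11 at 12 h, 6.87, 6.78 and 6.94 at 24 h and 6.75, 6.70 and 6.67 at 72 h. On it all treated arrays lay below all 0 h arrays, and the 24 and 72 h changes were -0.61 and -0.77 (SE 0.0661; adjusted p = 6.32e-06 and 6.74e-07). The third probe set, with a mean of 6.47, changed by at most 0.06 in size and was not called. The direction for ITGAE is thus not settled by these arrays.

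**Figure D2:**
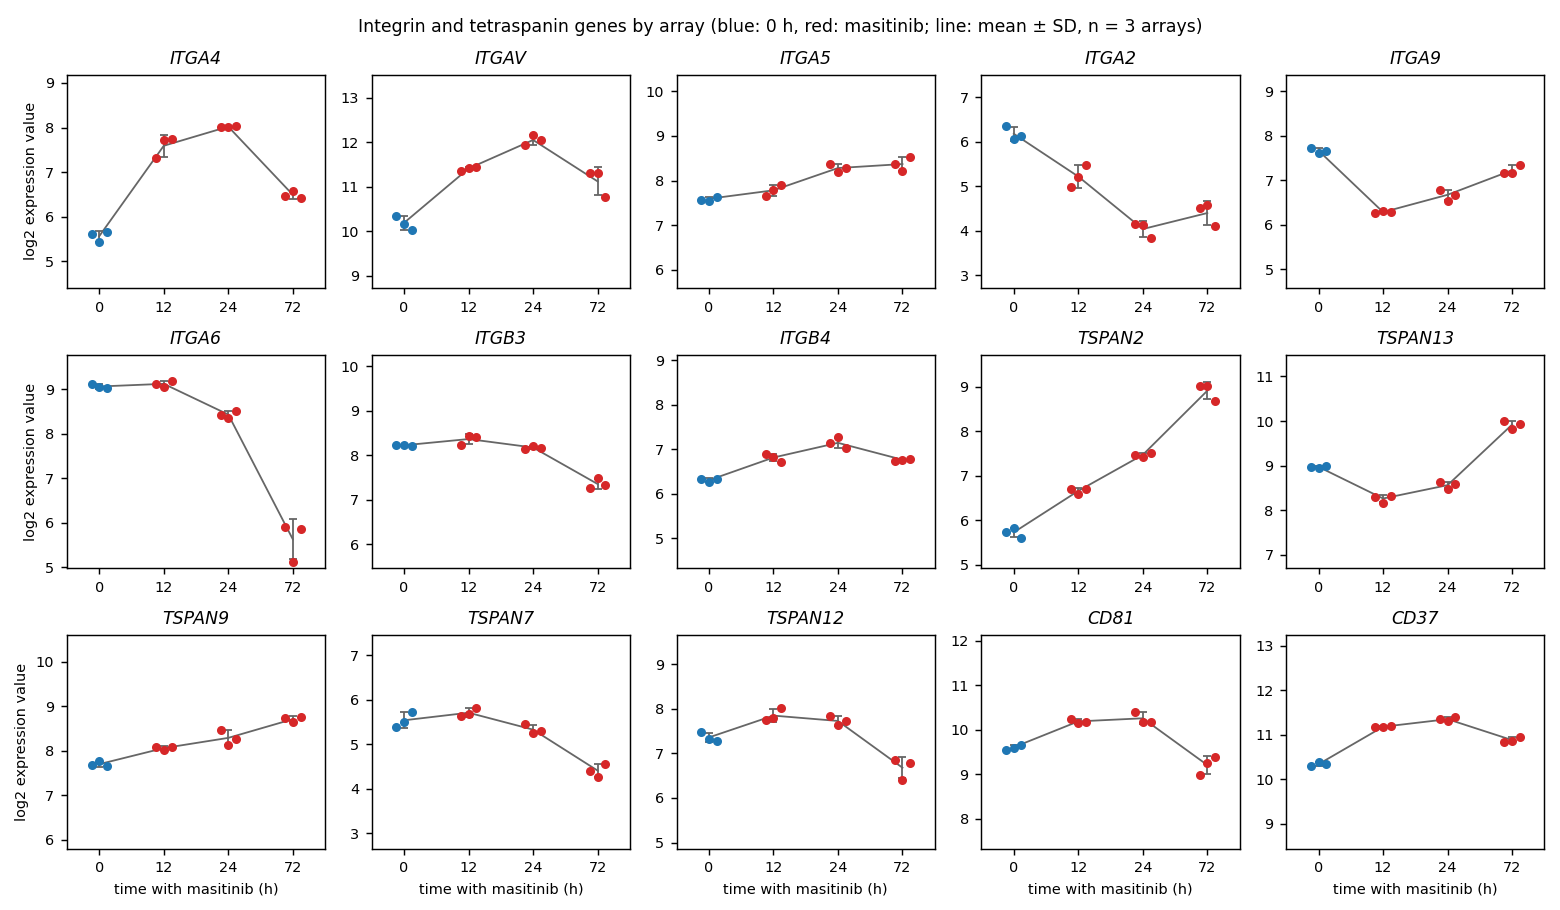
Log2 expression value (vertical axes, all spanning the same range) against hours with masitinib for 15 integrin and tetraspanin genes; each point is 1 array, blue at 0 h and red under masitinib, and lines join means with SD bars (n = 3). ITGA4 and ITGAV are highest at 24 h, TSPAN2 is highest at 72 h, and ITGA6 drops to 5.91, 5.12 and 5.86 at 72 h.

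Of the 4 alpha chains that recognise the RGD tripeptide of matrix proteins, ITGAV, ITGA5 and ITGA2B rose at 1 or more times and ITGA8 did not pass. The rises were 1, 2 and 3 of 4 at 12, 24 and 72 h, against 4.26%, 8.01% and 8.73% of all named genes. With 4 chains these are too few to be compared with those shares. ITGAV makes receptors for vitronectin and other matrix proteins with several beta chains. Its values were 10.35, 10.16 and 10.04 at 0 h, 11.36, 11.41 and 11.44 at 12 h, 11.94, 12.16 and 12.06 at 24 h and 11.30, 11.30 and 10.76 at 72 h. Treated arrays all lay above the 0 h arrays, the 24 h arrays were the highest, and 1 of the 72 h arrays lay apart at 10.76. The changes were 1.22, 1.87 and 0.94 (SE 0.131; adjusted p = 1.18e-05, 1.15e-07 and 6.24e-05), with a fall of 0.93 from 24 to 72 h (adjusted p = 0.000276). The next brightest probe set changed by 1.12, 1.85 and 0.90 and also passed at each time, and 3 dim probe sets did not. In the mean of all 5 probe sets the rises at 12 and 72 h (0.50 and 0.46) were not called. That at 72 h was not called either with poly-A scaling (0.46) or in a fit on the 0 and 72 h arrays alone (adjusted p = 0.00199).

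ITGA5, the alpha chain of the main fibronectin receptor, had values of 7.57, 7.55 and 7.63 at 0 h, 7.66, 7.79 and 7.90 at 12 h, 8.37, 8.19 and 8.27 at 24 h and 8.37, 8.22 and 8.52 at 72 h. The 24 and 72 h arrays lay above every array at 0 and 12 h. The changes were 0.20, 0.69 and 0.78 (SE 0.0866), and the later 2 passed (adjusted p = 2.6e-05 and 7.13e-06). With poly-A scaling they became 0.09 and 0.31 and did not, and the mean of both probe sets gave 0.47 at 24 h, not called. FN1, the fibronectin gene itself, changed by 0.35 and 0.15 at 12 and 24 h, neither called, and fell by 1.02 at 72 h (SE 0.0684; adjusted p = 6.72e-08).

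ITGA2B encodes the alpha chain of the platelet fibrinogen receptor and ITGB3 its partner, which also pairs with ITGAV. ITGA2B read 5.53, 5.62 and 5.81 at 0 h, 5.69, 5.94 and 5.90 at 12 h, 6.04, 5.99 and 5.79 at 24 h and 6.24, 6.31 and 6.24 at 72 h, with the 72 h arrays above all others and the 12 and 24 h arrays overlapping those at 0 h. It rose by 0.61 at 72 h (SE 0.0927; adjusted p = 0.000135). That call was lost without the 0 h replicate 1 (0.54), without the 72 h replicate 2 (0.58) and under each other scaling (0.58 with median centring, 0.55 with cyclic loess, 0.13 with poly-A controls). ITGB3 read 8.22, 8.23 and 8.21 at 0 h, 8.23, 8.43 and 8.41 at 12 h, 8.14, 8.21 and 8.15 at 24 h and 7.26, 7.48 and 7.32 at 72 h. Its 3 arrays at 72 h lay below all the others, which stayed within 8.14 to 8.43. It fell by 0.87 at 72 h against 0 h (SE 0.073; adjusted p = 5.58e-07) and by 0.82 against 24 h. Of 3 measured platelet markers GP9 rose at 24 and 72 h (0.91 and 1.5), while GP1BA stayed near 3.98 and PPBP changed by at most 0.28. The array mean of the 3 was 6.77 to 6.82 at 72 h and 6.16 to 6.29 at 0 h, and its part in the ITGA2B change was not tested.

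Of the laminin and collagen receptors, ITGA6 and ITGA2 fell. ITGA6, whose product binds laminins with ITGB1 or ITGB4, showed the largest change of all 52 genes on their brightest probe sets. It read 9.11, 9.04 and 9.03 at 0 h, 9.12, 9.05 and 9.18 at 12 h, 8.42, 8.35 and 8.50 at 24 h and 5.91, 5.12 and 5.86 at 72 h. The 0 and 12 h arrays overlapped, the 24 h arrays lay clearly below them and the 72 h arrays far below all others. The log2 changes were 0.06, -0.63 and -3.43 (SE 0.159), and that at 24 h missed the threshold (adjusted p = 0.00632). At 72 h this is 10.8-fold (adjusted p = 2.24e-09), and the gene fell by 2.80 between 24 and 72 h alone (adjusted p = 2.6e-07). Its probe sets differ in size of change: at 72 h the next brightest gave -1.04 (also called) and the 2 dimmer ones 0.25 and -0.45 (not called).

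ITGB4, which pairs with ITGA6 in hemidesmosomes, rose at 24 h. Its values were 6.33, 6.26 and 6.33 at 0 h, 6.88, 6.82 and 6.72 at 12 h, 7.14, 7.26 and 7.03 at 24 h and 6.73, 6.76 and 6.78 at 72 h, all treated arrays above all 0 h arrays. The changes were 0.50, 0.84 and 0.45 (SE 0.0694), of which only that at 24 h passed (adjusted p = 5.33e-07). It became 0.24 with poly-A scaling and 0.58 as the mean of the gene's probe sets, neither called. The laminin receptors ITGA3 and ITGA7 passed no test. Among the laminins, LAMB2 rose by 0.86, 1.31 and 1.37 (SE 0.0648) and LAMA1 fell by 0.96 at 72 h (SE 0.072).

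ITGA2, a collagen receptor with ITGB1, read 6.36, 6.06 and 6.12 at 0 h, 4.98, 5.20 and 5.48 at 12 h, 4.15, 4.14 and 3.83 at 24 h and 4.51, 4.58 and 4.10 at 72 h. Every treated array lay below every 0 h array, and those at 24 and 72 h below those at 12 h. The changes were -0.96, -2.14 and -1.78 (SE 0.152; adjusted p = 0.00031, 1.32e-07 and 6.36e-07), and from 12 to 24 h it fell by 1.18. The 12 h call was lost without 1 array in 4 cases, namely the 0 h replicates 1 and 3 and the 12 h replicates 1 and 2, where the change stayed between -0.99 and -0.84, and it was also lost with the methods' analysis of variance and in the mean of all probe sets (-0.58). A second probe set gave -0.82, -1.38 and -1.30, all called. This gene's mean signal lies below the median of every array. The other collagen receptors, ITGA1, ITGA10 and ITGA11, changed by at most 0.14 in size.

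**Figure D3:**
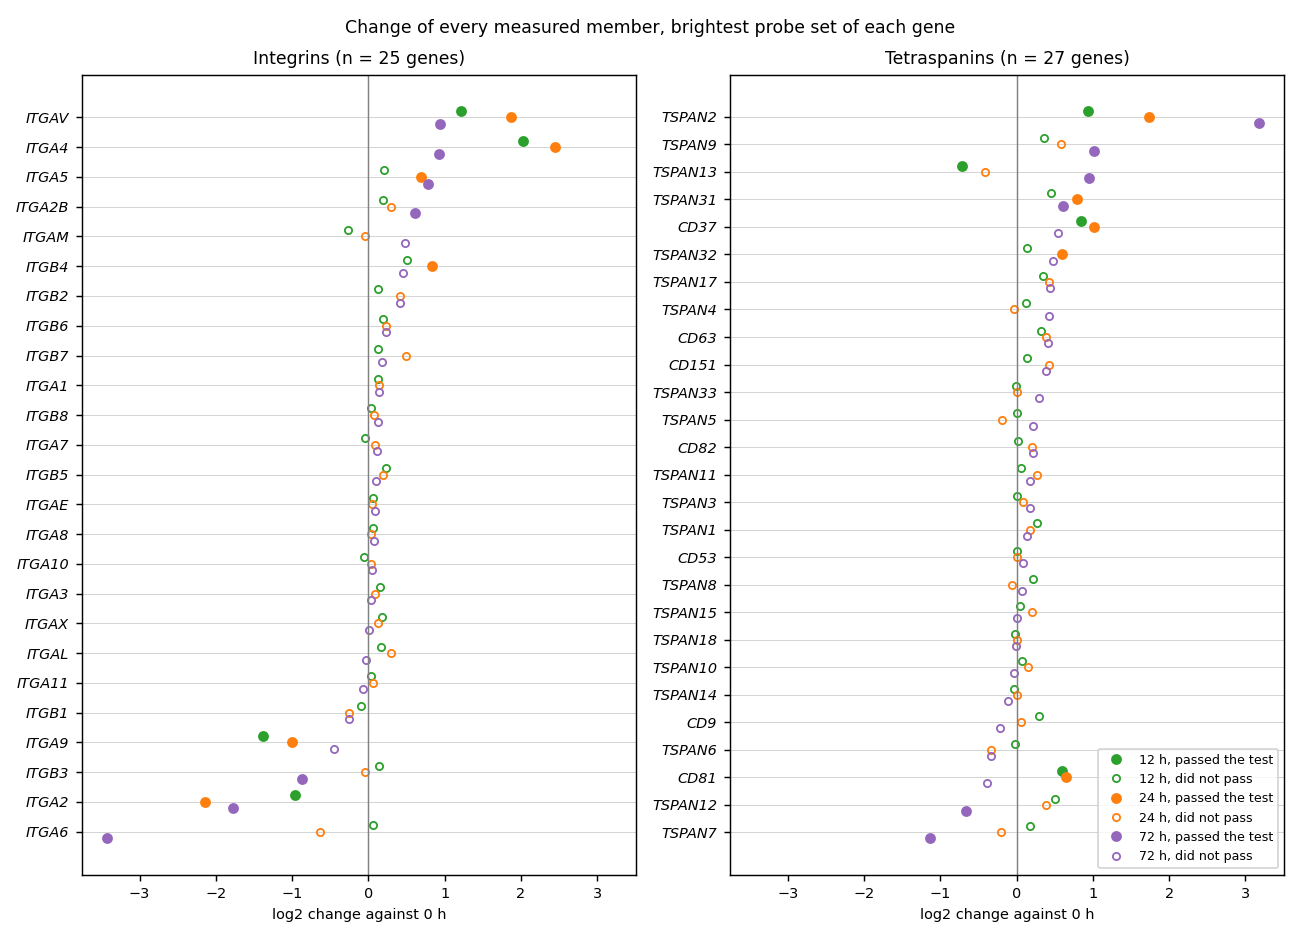
Log2 change against 0 h (horizontal axes) of all 25 integrins (left) and 27 tetraspanins (right) at 12 h (green), 24 h (orange) and 72 h (purple); filled points passed adjusted p under 0.001 and 1.5-fold, open points did not. The widest changes are ITGA6 at -3.43 and TSPAN2 at 3.18, both at 72 h, and the genes that never passed lie between -0.34 and 0.49.

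Of the 8 beta chains, ITGB4 rose at 24 h (12.5%, against 8.01% of all named genes) and ITGB3 fell at 72 h (12.5%, against 11%). Of all named genes 24.5% passed at any time against 0 h, and 8 chains are too few to be told apart from that share. ITGB1, the shared partner of most of the alpha chains above, averaged 9.20, 9.10, 8.95 and 8.94 at 0, 12, 24 and 72 h and changed by -0.10, -0.25 and -0.25 (SE 0.0864), with no call. Among alpha chains, 2, 3 and 4 of 17 rose at 12, 24 and 72 h (11.8%, 17.6% and 23.5%, against 4.26%, 8.01% and 8.73% of all named genes), and 2 fell at each time (11.8%, against 6.3%, 10.0% and 11%).

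TSPAN2 rose most among the tetraspanins. It is best known from oligodendrocytes, the myelin-forming cells of the brain. Its log2 values were 5.74, 5.83 and 5.61 at 0 h, 6.70, 6.58 and 6.70 at 12 h, 7.46, 7.42 and 7.52 at 24 h and 9.02, 9.01 and 8.68 at 72 h. The 4 time points formed 4 groups with no overlap, each above the one before. The changes were 0.94, 1.74 and 3.18 (SE 0.0929; adjusted p = 6.02e-06, 9.32e-09 and 4.36e-11), and both steps between treated times passed as well, at 0.80 and 1.44. At 72 h the rise was 9.05-fold, and a second probe set gave 3.77 (13.7-fold). The third, with a mean of 3.15, did not pass.

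**Figure D4:**
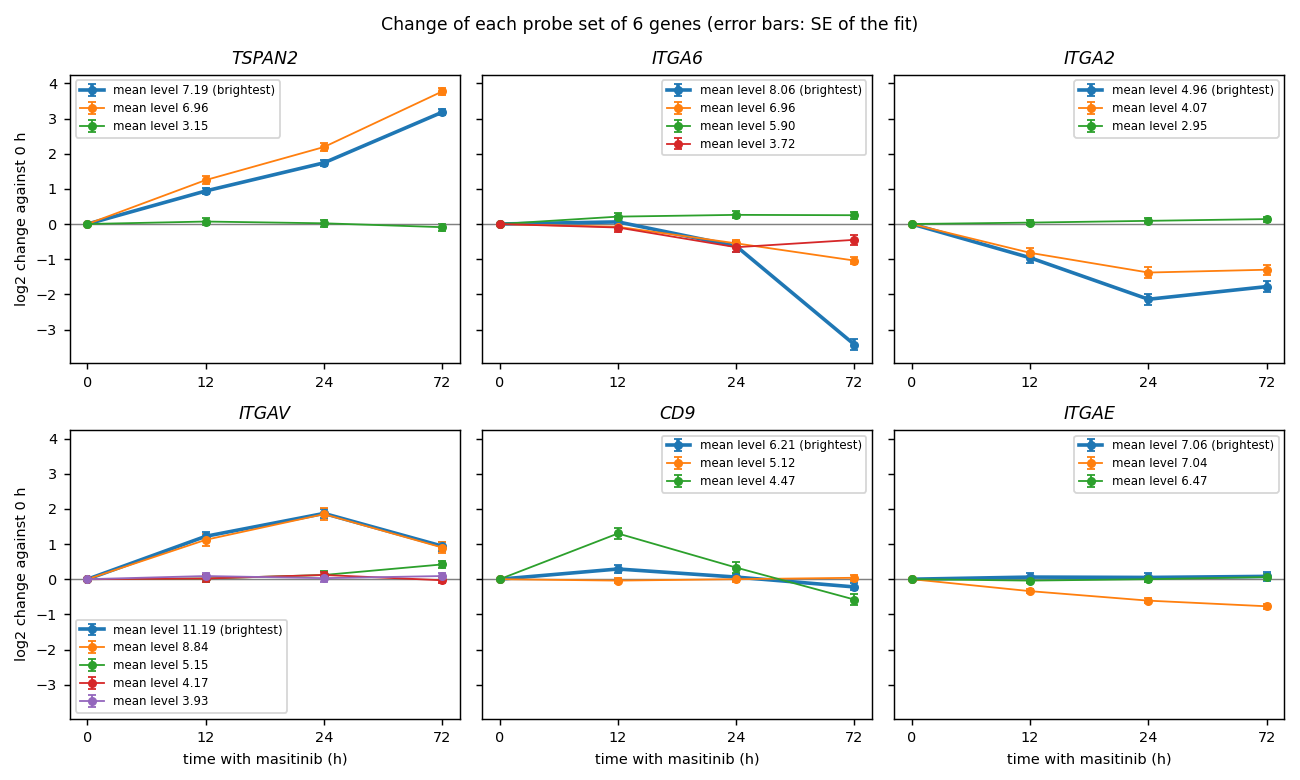
Log2 change against 0 h (vertical axes) over hours with masitinib for every probe set of TSPAN2, ITGA6, ITGA2, ITGAV, CD9 and ITGAE; bars are the SE of the limma fit, the thick line is the brightest probe set, and the legends give each one's mean log2 level. For CD9 and ITGAE a probe set other than the brightest passed the test, at 1.30 for CD9 at 12 h and -0.77 for ITGAE at 72 h.

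TSPAN13 turned from a fall to a rise. Its values were 8.97, 8.94 and 9.00 at 0 h, 8.30, 8.17 and 8.31 at 12 h, 8.63, 8.48 and 8.58 at 24 h and 9.99, 9.83 and 9.93 at 72 h. The 12 and 24 h arrays all lay below the 0 h arrays and the 72 h arrays all above them. The change was -0.71 at 12 h (adjusted p = 3.64e-06), -0.41 at 24 h (not called) and 0.95 at 72 h (SE 0.0668; adjusted p = 1.07e-07). Between 24 and 72 h it rose by 1.36. The gene's second probe set gave -0.46, -0.42 and 0.57, none called against 0 h, and 0.99 from 24 to 72 h, which was. With poly-A scaling the 72 h change was 0.47 and not called.

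CD37 and CD81 are tetraspanins of immune cells. CD37 is found mainly on leukocytes, and CD81 is found on many cell types besides. CD37 read 10.29, 10.38 and 10.34 at 0 h, 11.18, 11.17 and 11.20 at 12 h, 11.35, 11.31 and 11.41 at 24 h and 10.84, 10.85 and 10.95 at 72 h, with no overlap between 0 h and any treated time. It rose by 0.84 and 1.02 at 12 and 24 h (SE 0.058; adjusted p = 2.42e-07 and 1.68e-08), and the change of 0.54 at 72 h did not exceed 1.5-fold. Its second probe set gave 0.91, 0.99 and 0.44. Both rises fell below 1.5-fold with poly-A scaling (0.55 and 0.42). Of the 4 B cell markers, CD79A alone passed, at 72 h (0.64), and their array mean was 4.82 to 5.11 on treated arrays and 4.91 to 5.07 at 0 h.

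CD81 read 9.55, 9.60 and 9.67 at 0 h, 10.25, 10.15 and 10.18 at 12 h, 10.41, 10.18 and 10.18 at 24 h and 8.99, 9.26 and 9.40 at 72 h. The arrays at 12 and 24 h lay above and those at 72 h below all 0 h arrays. The changes were 0.59, 0.65 and -0.39 (SE 0.0992), and the first 2 passed (adjusted p = 0.000524 and 0.000143). From 24 to 72 h it fell by 1.04 (adjusted p = 1.31e-05). The rise at 12 h lies at the threshold: leaving out any 1 of the 6 arrays at 0 and 12 h ended the call (0.56 to 0.62), and so did the methods' analysis of variance and median centring (0.55). The rise at 24 h was lost without the 24 h replicate 1 (0.57). A second probe set passed at both times (0.67 and 0.71) and changed by -0.37 at 72 h.

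CD9, which is widespread on blood cells and in mice is needed for the fusion of egg and sperm, passed on a dim probe set only. Its brightest probe set changed by 0.29, 0.06 and -0.22. The dimmest read 4.03, 4.38 and 4.22 at 0 h, 5.65, 5.58 and 5.31 at 12 h, 4.70, 4.38 and 4.55 at 24 h and 4.03, 3.57 and 3.28 at 72 h, with the 12 h arrays above all others. It rose by 1.30 at 12 h (SE 0.167; adjusted p = 5.41e-05) and differed by -1.89 between 72 and 12 h. EPCAM, an epithelial adhesion protein found in complexes with CD9, rose by 0.81 at 12 h and fell by 1.54 at 72 h. It is also 1 of 4 epithelial markers, of which KRT18 changed by 0.78 and -1.15 at these times, CDH1 by 0.22 and 0.63, and KRT8 stayed at 2.83 to 3.12 on average. The array mean of these markers was 6.12 to 6.36 at 12 h and 5.17 to 5.25 at 72 h, against 5.77 to 5.82 at 0 h, and its part in the CD9 and CD81 values was not tested.

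TSPAN9, known from platelets and megakaryocytes, read 7.68, 7.77 and 7.66 at 0 h, 8.09, 8.02 and 8.08 at 12 h, 8.47, 8.14 and 8.26 at 24 h and 8.74, 8.64 and 8.76 at 72 h. All treated arrays lay above the 0 h arrays, and those at 72 h were the highest. The change grew through 0.36 and 0.58, neither called, to 1.01 at 72 h (SE 0.0811; adjusted p = 3.55e-07). The gene's other, dimmer probe set went the opposite way, with changes of -0.16, -0.28 and -0.26 (SE 0.1) and every treated array below every 0 h array, but was not called (adjusted p = 0.0542 at 72 h). The mean of both probe sets gave 0.37 at 72 h. With poly-A scaling it was 0.54, below the threshold of 1.5-fold.

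TSPAN31, first described as a gene amplified in sarcomas, read 9.74, 9.82 and 9.90 at 0 h, 10.30, 10.29 and 10.22 at 12 h, 10.70, 10.56 and 10.57 at 24 h and 10.40, 10.40 and 10.50 at 72 h, each treated array above each 0 h array. It rose by 0.79 at 24 h and 0.61 at 72 h (SE 0.0668; adjusted p = 6.83e-07 and 6.29e-06), and a second probe set gave 0.68 and 0.69, both called. The 72 h rise fell under 1.5-fold without the 0 h replicate 1 (0.57), without the 72 h replicate 3 (0.58) and with median centring (0.58). TSPAN32, a tetraspanin of blood cells, read 6.72, 6.66 and 6.72 at 0 h, 6.97, 6.67 and 6.89 at 12 h, 7.18, 7.26 and 7.42 at 24 h and 7.13, 7.19 and 7.22 at 72 h. The 24 and 72 h arrays lay above all those at 0 and 12 h. The rise of 0.59 at 24 h (SE 0.0839; adjusted p = 8.42e-05) was lost without the 0 h replicate 2 (0.57), without the 24 h replicate 3 (0.52), in the mean of both probe sets (0.57) and under each other scaling, and was -0.02 with poly-A scaling.

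TSPAN7 and TSPAN12 fell late. TSPAN7, known for its part at neuronal synapses, read 5.38, 5.50 and 5.73 at 0 h, 5.63, 5.67 and 5.82 at 12 h, 5.45, 5.25 and 5.29 at 24 h and 4.39, 4.26 and 4.56 at 72 h. The 72 h arrays lay below all others, and the change was -1.13 (SE 0.104; adjusted p = 1.28e-06). It is a dim probe set, under the median of every array, and the mean over the gene's 3 probe sets gave -0.54, not called. TSPAN12, a helper of Norrin signalling in retinal vessels, read 7.48, 7.32 and 7.27 at 0 h, 7.75, 7.80 and 8.01 at 12 h, 7.85, 7.63 and 7.73 at 24 h and 6.86, 6.41 and 6.78 at 72 h. The 12 h arrays and the 24 h arrays lay above, and the 72 h arrays below, all 0 h arrays. The changes were 0.50, 0.38 and -0.67 (SE 0.115), of which that at 72 h passed against 0 h (adjusted p = 0.000347). It was lost without the 0 h replicate 1 (-0.61), the 0 h replicate 2 (-0.69) or the 72 h replicate 2 (-0.54), with the analysis of variance, on the 0 and 72 h arrays alone and in the mean of 3 probe sets (-0.30). The fall of 1.05 from 24 to 72 h passed as well (adjusted p = 3.95e-05).

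None of the 6 measured tetraspanins that escort the protease ADAM10 to the cell surface (TSPAN5, TSPAN10, TSPAN14, TSPAN15, TSPAN17 and TSPAN33) passed at any time. Of all named genes 24.5% did, and 6 genes are too few to be told apart from that share. The largest change among these tetraspanins was 0.44, for TSPAN17 at 72 h, and ADAM10 itself changed by 0.25, 0.31 and 0.05 with no call. The 34 genes that never passed comprised 16 integrins and 18 tetraspanins. The 6 with the brightest probe sets were CD63, TSPAN6, ITGB2, TSPAN3, ITGB7 and CD151. CD63 averaged 13.55, 13.86, 13.93 and 13.96 at the 4 times, near the top of the scale. CD151, the companion of laminin-binding integrins, changed by 0.14, 0.43 and 0.38, TSPAN3 by 0.00, 0.09 and 0.17, and TSPAN6 by -0.02, -0.34 and -0.34. Of the 52 genes, 17 had a brightest probe set under the lowest array median (5.892), and ITGA2 and TSPAN7 were the 2 of these that passed.

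Genes that act on integrins or bind them are counted here beside the shares of all named genes, of which 4.26%, 8.01% and 8.73% rose at 12, 24 and 72 h and 6.3%, 10.0% and 11% fell. In the list for activation and the link to actin, 1, 5 and 6 of 33 measured genes rose (3.03%, 15.2% and 18.2%) and 2, 2 and 4 fell (6.06%, 6.06% and 12.1%). PARVB, the beta-parvin of the complex around integrin-linked kinase, rose by 1.25, 2.10 and 2.46 (SE 0.0989; adjusted p = 6.27e-10 at 72 h). RASGRP2, the exchange factor that switches on RAP1 in platelets, changed by 0.69, 1.15 and 2.36 (SE 0.155), and the later 2 passed. RAP1A passed at no time, and RAP1B fell by 0.64 at 12 h only. TLN1 (talin) rose by 0.87 and 0.91 at 24 and 72 h. FERMT3, the kindlin of blood cells, rose by 0.74 at 72 h, while FERMT2, the kindlin of most other tissues, fell at 12 and 24 h (-0.68 and -1.25). TNS1 (tensin) and SKAP2, an adaptor of leukocyte adhesion, fell at 72 h (-1.28 and -1.02).

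Of the kinases and adaptors below integrins, 0, 1 and 2 of 30 rose (0%, 3.33% and 6.67%, against the same 4.26%, 8.01% and 8.73%) and 0, 2 and 1 fell (0%, 6.67% and 3.33%, against 6.3%, 10.0% and 11%). PTK2, the focal adhesion kinase, rose by 0.81 and 0.68 at 24 and 72 h. Of the Src family kinases, YES1 fell at the same times (-0.64 and -0.70), FGR rose by 0.68 at 72 h, and SRC, FYN and LYN had no call. PAK1 changed by -0.68 at 24 h, a fall that passed. Of the ligands, 1, 1 and 4 of 35 rose and as many fell (2.86%, 2.86% and 11.4% in each direction), which is below those background shares at 12 and 24 h and near them at 72 h. THBS1 (thrombospondin 1) fell at all 3 times (-1.08, -1.51 and -1.72, SE 0.106), and SPP1 (osteopontin), which ITGAV and ITGA9 integrins bind, fell by 1.33 at 72 h (SE 0.178). ICAM1 changed by -0.54, -0.49 and -0.40, with no call.

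In the list for partners of tetraspanins, 2, 3 and 3 of 19 measured genes rose (10.5%, 15.8% and 15.8%, against 4.26%, 8.01% and 8.73%). In the same list 0, 0 and 2 fell (0%, 0% and 10.5%, against 6.3%, 10.0% and 11%). UPK1A, UPK1B, PRPH2 and ROM1 in this list are tetraspanins themselves, which the symbol rule does not take, and none of them was called. CD44, the hyaluronan receptor, rose by 0.83, 0.89 and 1.97 (SE 0.11). PTGFRN, a close partner of CD9 and CD81, rose by 1.38 and 1.28 at 24 and 72 h, and CADM1, an adhesion molecule by which mouse mast cells attach to nerves and fibroblasts, by 0.82 and 1.41. PDCD6IP (ALIX), which works in the budding of exosomes, fell by 0.94 at 72 h. The median change of these 4 lists lay between -0.01 and 0.11, beside 0.011 to 0.033 for all named genes.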

How the data were processed

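Messenger RNA of C2 cells was measured on 12 Affymetrix Canine Genome 2.0 arrays, 3 per time point. The authors deposited 1 log2 value for each probe set on each array, made with the gcRMA workflow of Partek Genomics Suite (RMA background correction, quantile normalization, median polish); Partek and RMA stand in the submitters' processing notes without versions. Quantile normalization gives arrays nearly the same distribution, so a change shared by most transcripts is removed before any test.

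Without the 111 controls of the manufacturer, 42924 probe sets were fitted in R 4.3.3 with limma 3.58.1 (lmFit, eBayes), with 1 coefficient per time point, all 12 arrays and no covariate, after the methods' thresholds. Benjamini-Hochberg adjustment ran over all of them, and the steps were tested on simulated data. Symbols came from the platform annotation, where 29254 probe sets had 1 symbol, 439 several and 13231 none; 27680 matched an Entrez identifier in the gene table of assembly UU_Cfam_GSD_1.0, and 0 changed. The brightest probe set stood for a gene. Named with every array are all members called against 0 h; further named are the 6 uncalled members with the highest mean, members with probe sets that disagree or with a role in a comparison, and, of each pathway list, up to 4 called genes with the largest change at 72 h and central genes. FERMT2, LAMA1, PDCD6IP and the cell type markers lie outside that rule and were chosen after their values were seen. SRC, FYN, LYN, UPK1A, UPK1B, PRPH2 and ROM1, named without a call, lie outside it as well. Members and lists were chosen with earlier results of these data known.

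No 2 arrays held identical values. The number of arrays limits the precision; the median residual SD was 0.1124 (log2). Tables were made in Python 3.11.15 with pandas 2.3.3 and figures with matplotlib 3.10.9. Alternatives covered thresholds, scaling, symbols, dim probe sets, the choice of probe set, fits on fewer arrays, the analysis of variance of the methods (Storey q-values) and a block for the replicate number.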

Additional observations from a re-analysis of the deposited data

Results flagged for a closer look

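For 12 members the change at 72 h differed from that at 12 h by the direct comparison of the 2 treated times in the limma fit, at adjusted p under 0.001 and over 1.5-fold. Of the 52 genes 11.5% rose and 11.5% fell in it, against 4.8% and 5.51% of all named genes. TSPAN2 was higher at 72 h by 2.24, TSPAN13 by 1.66, ITGA9 by 0.93, ITGAM by 0.75, TSPAN9 by 0.65 and ITGA5 by 0.59 on the log2 scale. The differences of 72 h minus 12 h were -3.49 for ITGA6, -1.30 for TSPAN7, -1.17 for TSPAN12, -1.11 for ITGA4, -1.0 for ITGB3 and -0.98 for CD81. In each of the 12 genes the 3 arrays at 72 h did not overlap the 3 at 12 h. The genes were picked by a comparison of these same arrays, so that adds no separate evidence.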

How the results depend on the processing

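Of 32 calls of a member against 0 h, 19 held under every alternative that tested the gene, the 2-fold threshold and poly-A scaling apart. The 2-fold threshold alone ended 19 of the 32. With both included, the only calls never lost were ITGA4 at 12 and 24 h, ITGA9 at 12 h and ITGAV at 24 h, ITGA2 and TSPAN2 at 24 and 72 h, and ITGA6 at 72 h. Between 12 and 24 h the count of changed members was 2, and it was 1 with the methods' analysis of variance, 4 with only the arrays of the 2 times, 4 with poly-A scaling, 1 when the dimmest 40% of probe sets were left out and 0 for the mean over a gene's probe sets. At adjusted p under 0.05 with no minimum fold, 12, 19 and 19 members rose at 12, 24 and 72 h, 6 fell at 24 h and 9 at 72 h, and 17, 18 and 23 changed from 12 to 24, 24 to 72 and 12 to 72 h. Above 2-fold, 2, 4 and 2 rose, 1, 1 and 3 fell, 1 changed from 12 to 24 h and 7 from 12 to 72 h. The shares of all named genes at these changed thresholds are not given here, so the counts cannot be read against them. Poly-A scaling gave 3, 3 and 1 rises and 16 and 10 falls at 24 and 72 h, lost 14 of the 32 calls and turned TSPAN32 at 24 h to -0.02. On that scale 536 and 904 of the 29254 named probe sets rose and 14140 and 9157 fell at 24 and 72 h, while the members are counted as genes. Leaving out the dimmest 40%, and with them ITGA2 and TSPAN7, gave 1 fall at 24 h and 3 at 72 h, and the mean over a gene's probe sets gave 3 falls at 72 h. Why the other settings moved these counts was not tested. Without 1 array, rises ranged over 4 to 5, 8 to 10 and 6 to 8 at 12, 24 and 72 h, falls over 2 to 3, 2 to 3 and 4 to 5, and members changed between treated times over 2 to 3, 8 to 10 and 12 to 12. The replicate numbers share only a number, since deviations of same-numbered arrays correlated at -0.329 to 0.411 over 18 pairs and 6 of 12 arrays correlated best with their own number; with the replicate block 4 members rose at 12 h in place of 5, CD81 being lost (adjusted p = 0.0016), and the other counts were the same. Updating symbols changed 0 symbols, so that fit equals the reported one. Dim probe sets and 3 arrays a time point limit what can be detected.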
